A study of Mus musculus with 3 samples.

Results

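The 47 genes described here are neighbours on the distal part of mouse chromosome 16, from Nrip1 to Bace2 (GRCm38, chr16:76287400-97442936, a stretch of 21.2 Mb). They were taken by symbol from a list, out of 22735 genes of the expression table, and are called the members below. They were chosen by their position and by log2(FPKM + 1) values that were higher in the invasive and metastatic libraries than in the localized one, so the differences given here are a description and no test. The label of the list holds in its position, since all 47 members lie on chromosome 16 in the GENCODE M21 annotation. RNA-seq was made from 3 pancreatic tumour cell lines of the HI-Panc progression model, labelled localized, invasive and metastatic, with 1 library each. All 3 lines carry a p16-/- genotype from transgenic mice and were kept in DMEM supplemented by 10% fetal bovine serum. A treatment text shared by all 3 samples gives cobalt chloride at 100 ng/ml for 24 h, an agent used to mimic hypoxia, and does not say which libraries it covers. By tissue, the localized line is labelled body wall, the invasive one pancreatic tissue and the metastatic one liver, so the first pair of tissue labels runs against the stage labels. The stage labels were followed, and an exchange of those lines would reverse the first comparison below, swap the other comparisons, and make the invasive library the lowest one. The labels name no age, sex, clone number or number of mice behind a line.

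Most genes of this stretch have their human counterparts on the chromosome that is trisomic in Down syndrome, and mouse strains with an extra copy of parts of it are used as models of that condition. The genes do not form a pathway. They encode receptor chains for interferons and interleukin-10, the amyloid precursor protein and a protease that cuts it, the cytosolic superoxide dismutase, transcription factors of the ETS and Runx families, chromatin proteins, and single subunits of large complexes whose other subunits are encoded elsewhere. Genes that lie next to each other on a chromosome can share a promoter region when they are transcribed away from each other, and all genes of a segment share its copy number. DNA copy number was not analysed here.

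The localized library had the lowest values along nearly the whole stretch. A gene was compared where its mean over the 3 libraries reached 1 FPKM (fragments scaled to transcript length and library size, a level per length), which 40 of the 47 members and 11404 genes in all did. Among the 40, 37 had their lowest value in the localized library, and 25 followed the order localized, invasive, metastatic. Over all genes compared, 41.8% had their lowest value in the localized library and 22.6% followed that order. The median FPKM ratio of the members was 1.96 for invasive over localized, 2.21 for metastatic over localized and 1.07 for metastatic over invasive. Each stage has 1 library, so none of these differences has a replicate check. The first 2 ratios share the localized library.

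On the scale of log2(FPKM + 1), which understates changes of genes with low levels, the median difference of the 40 members was 0.90 for invasive against localized, with quartiles of 0.67 and 1.33. All genes compared had a median of 0.00 with quartiles of -0.29 and 0.33. The limit of 1.5-fold was passed upwards by 34 members and downwards by 0, where 15.1% and 11.9% of all genes passed these limits. The limit of 2-fold was passed upwards by 17 members, against 8.78% of all genes, and downwards by 0, against 6.07%. Both limits were fixed with these values known. For metastatic against localized the median was 1.08 with quartiles of 0.78 and 1.24, beside 0.00, -0.32 and 0.35 over all genes. Here 36 members were at least 1.5-fold higher (15.9% of all genes) and 0 lower (14.1%), and 22 were at least 2-fold higher (9.08%) and 0 lower (7.29%). Above the median of all genes lay 37 members in the first and 38 in the second comparison, where 50% of all genes lie by construction. Both comparisons put 33 members past 1.5-fold upwards (12.5% of all genes), 1 comparison alone put 4 past it (6.11%), and neither did so for 3 (81.4%).

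The metastatic and invasive libraries were close to each other over these genes. Their median difference was 0.10, beside -0.01 over all genes, and 27 members lay above the median of all genes. Past 1.5-fold upwards were 2 members, Rcan1 and Hlcs (3.51% of all genes), and downwards 1, Btg3 (5.35%). Btg3 was also 2-fold lower (1.67%), and 0 members were 2-fold higher (1.33%). The 283 genes of chromosome 16 ahead of Nrip1 had a median of 0.09 in this comparison, close to that of the members.

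**Figure D1:**
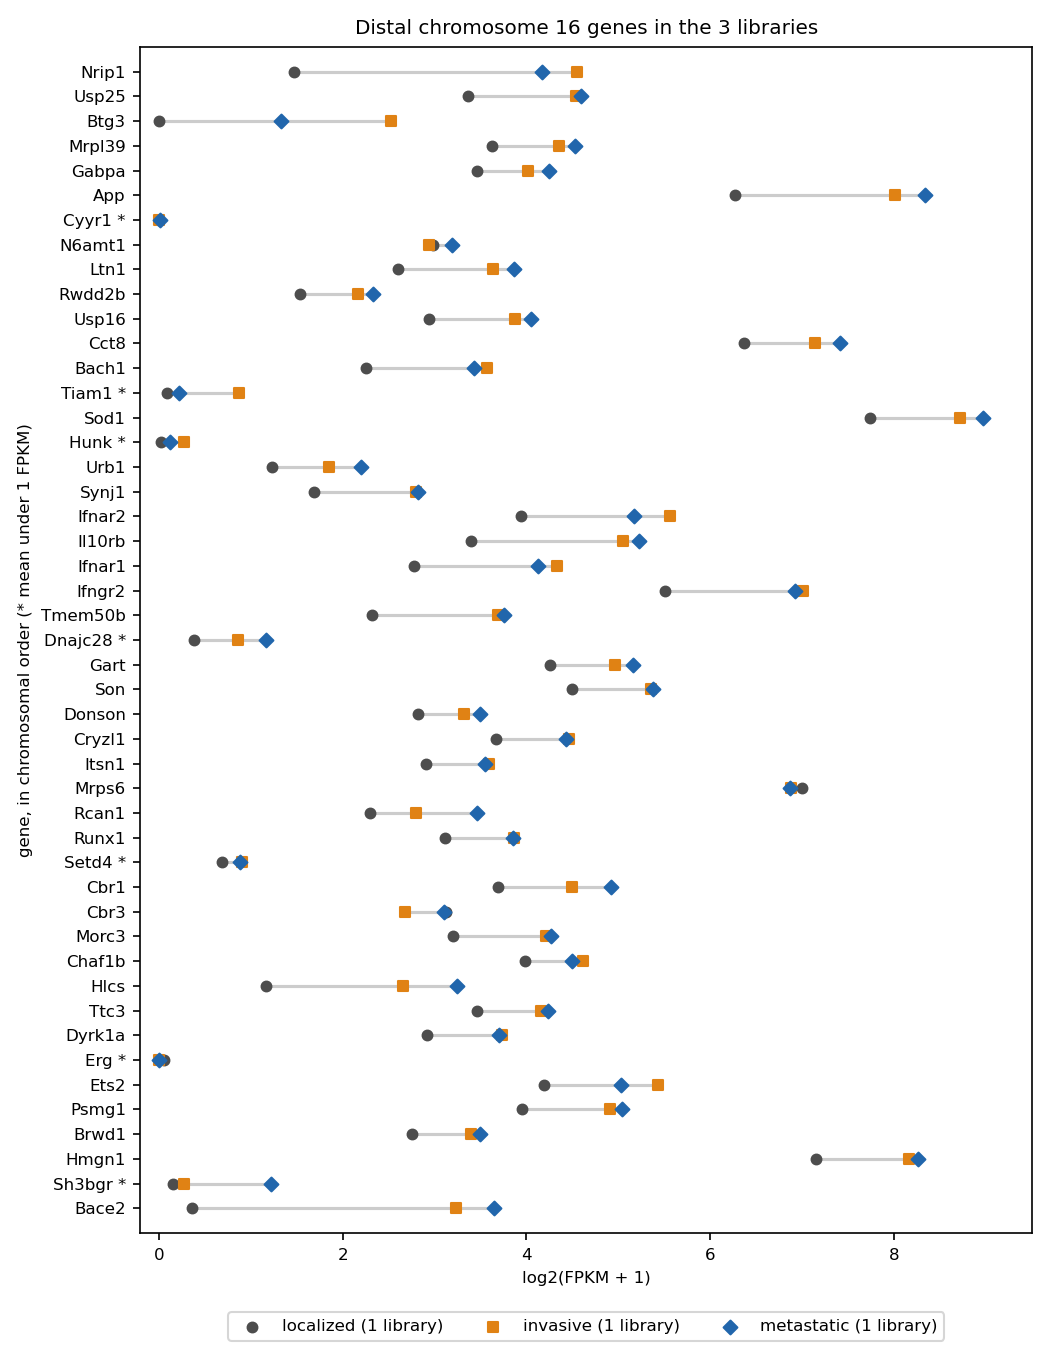
Level of each of the 47 members, in chromosomal order, in the localized (circle), invasive (square) and metastatic (diamond) library, as log2(FPKM + 1), with 1 library per point and no error bars. The circle lies left of both other symbols for 37 of the 40 compared members; an asterisk marks the 7 members with a mean under 1 FPKM.

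Of the 7 members under a mean of 1 FPKM, Cyyr1, Hunk and Erg had at most 0.206 FPKM in any library and cannot be compared at this level. Just below the limit were Dnajc28 (0.300, 0.811 and 1.25 FPKM in the localized, invasive and metastatic libraries) and Setd4 (0.611, 0.869 and 0.838 FPKM). Tiam1 had 0.0654, 0.829 and 0.162 FPKM and Sh3bgr 0.115, 0.212 and 1.33 FPKM. Just above it were Btg3, with a mean of 2.09 FPKM, and Urb1, with 2.52. Btg3 and Bace2 reached the limit only through the libraries in which they were high, so a difference in them was fixed by the filter. With those removed, 38 members at 1 FPKM or more in the localized library had medians of 0.83 and 1.06.

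The 3 libraries had similar depth. The table gives no counts, but low values moved in steps of whole fragments, which gave estimates of 45800000, 41300000 and 43500000 fragments for the localized, invasive and metastatic libraries. Against these, the compared members rested on a median of about 1041.5 fragments in the localized library, up to about 12900 for Hmgn1. The 95% counting interval of the FPKM ratio lay above 1 for 37 members and below 1 for 2 in the invasive against localized comparison, where it did so for 41.8% and 40.3% of 10644 genes with a usable length. In the metastatic against localized comparison it lay above 1 for 38 (42.8% of those genes) and below 1 for 1 (40.6%). Between metastatic and invasive it lay above 1 for 22 (33.3%) and below 1 for 8 (35.1%). These exact binomial intervals cover counting error only, not the variation between cultures. Because tumour lines were measured in bulk, fewer cells of a type and less RNA per cell cannot be told apart.

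The cell type markers also differed between the libraries. The 7 listed markers of duct epithelium summed to 1212, 6302 and 6797 FPKM in the localized, invasive and metastatic libraries, and 5, 7 and 7 of them reached 1 FPKM. The 6 fibroblast markers summed to 446, 81.7 and 7.37 FPKM, with 6, 3 and 3 at 1 FPKM or more, and Lum was at 0.0128 FPKM or less outside the localized library. The localized library thus had the higher fibroblast sum and the lower epithelial sum, which the keratins carry, whereas Sox9 was lowest in the metastatic library (17.5, 23.3 and 11.4 FPKM). The part of these markers in the differences of the members was not tested. Islet, hepatocyte, endothelial and skeletal muscle markers stayed under 1 FPKM in every library. Of the leukocyte markers 1 of 5, Cd68, passed 1 FPKM, while Cd3e was at 0 and Ptprc at most at 0.197 FPKM. The 5 acinar markers summed to 7.58, 1.20 and 0.465 FPKM, nearly all of it Cela1 in the localized and invasive libraries (7.24, 1.13 and 0.323 FPKM), while Cpa1, Amy2a5 and Ptf1a were at 0 throughout.

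The higher values lay in the last part of the chromosome. Along chromosome 16, stretches of 5 Mb from the start of the chromosome to 65 Mb had medians between -0.38 and 0.14 for invasive against localized. The 3 compared genes between 65 and 75 Mb differed in direction, with 0.44 for Chmp2b, -0.11 for Gbe1 and -1.64 for Robo2. For metastatic against localized these genes had 0.94, -0.06 and -1.08. From 75 Mb on, the medians for invasive against localized were 1.91 (6 genes), 0.72 (5 genes), 0.86 (6 genes), 0.81 (36 genes) and 0.96 (15 genes). For metastatic against localized the same 5 stretches had 1.43, 0.90, 1.08, 1.02 and 1.09. In the metastatic against invasive comparison they had -0.14, 0.18, 0.20, 0.07 and 0.10. Btg3, Clic6 and Ripply3, and in the last stretch Igsf5, Bace2, Mx1, Tmprss2, Ripk4 and C2cd2, were under 1 FPKM in the localized library. These genes were compared only through the libraries in which they were high, so the filter had a part in these medians. Medians of the stretches without them were not computed. As a description of scale, 360 stretches of 5 Mb with at least 10 genes on the other chromosomes had medians up to 0.67 (chromosome 10) for invasive and up to 0.68 (chromosome 5) for metastatic against localized. The chromosome 16 stretches of 6, 5 and 6 genes fall short of that number of genes and have no like range beside them. Smaller stretches elsewhere went higher, as on chromosome 14 from 40 to 45 Mb (3 genes), with 1.73 for invasive and 1.09 for metastatic against localized. Whole chromosomes other than 16 had medians from -0.37 (chromosome 19) to 0.33 (chromosome 14) in the first of these comparisons. All 283 compared genes ahead of Nrip1 on chromosome 16 had medians of -0.03 and 0.05, with 10.6% and 15.2% past 1.5-fold upwards.

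**Figure D2:**
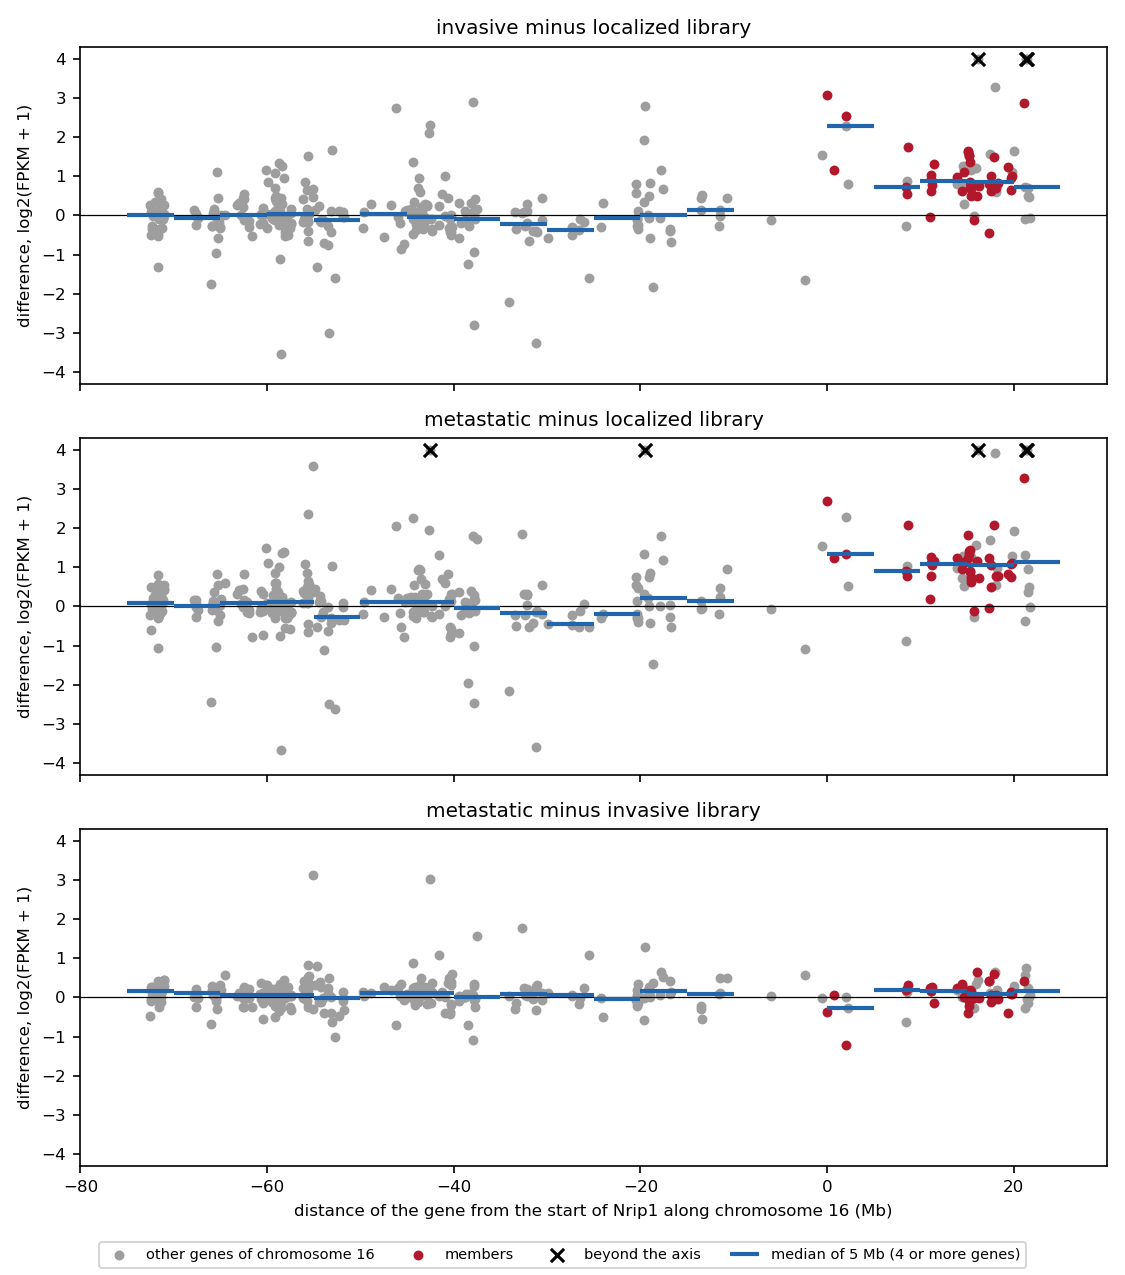
Difference in log2(FPKM + 1) of each compared gene of chromosome 16 against its distance from the start of Nrip1 in Mb, for the 3 comparisons; red points are members, grey points other genes, blue bars medians of 5 Mb steps counted from Nrip1 with 4 or more genes, and crosses genes beyond the axis. In the upper 2 panels the bars lie near 0 ahead of Nrip1 and above 0.5 after it, and in the lowest panel they stay near 0 throughout.

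The edges can be read from single genes. Immediately ahead of Nrip1, the chaperone gene Hspa13 had 9.83, 30.5 and 30.3 FPKM in the localized, invasive and metastatic libraries, with differences of 1.54 and 1.53 from the localized library. The next compared genes in that direction did not share this. The axon guidance receptor gene Robo2 had 3.47, 0.428 and 1.11 FPKM, and the glycogen branching enzyme gene Gbe1 had 9.77, 8.99 and 9.30 FPKM. Further out, Chmp2b had 32.2, 44.0 and 62.8 FPKM, with differences of 0.44 and 0.94 from the localized library. Beyond Bace2, 8 compared genes remain before the end of the chromosome, with medians of 0.60 and 0.72. Among them 4 were under 1 FPKM in the localized library and were compared only through the others, and the remaining 4 had medians of 0.20 and 0.18. The interferon-induced GTPase genes Mx1 (0.236, 1.05 and 2.07 FPKM) and Mx2 (1.55, 1.41 and 0.984 FPKM) differed in direction there. The transmembrane protease gene Tmprss2 (0.403, 68.5 and 116 FPKM) and the kinase gene Ripk4 (0.318, 24.4 and 23.7 FPKM) were far higher outside the localized library. Prdm15 had 1.37, 2.36 and 2.05 FPKM and Zbtb21 2.43, 3.76 and 3.82 FPKM, whereas the last gene, A630089N07Rik, had 1.64, 1.52 and 1.61 FPKM.

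Genes of the same stretch that are not on the list had differences of similar size. The table holds 92 of them, of which 45 were at 0 in every library, and 19 were compared. Their medians against the localized library were 1.12 (invasive) and 1.24 (metastatic), and the metastatic library stood 0.11 above the invasive one. Of the 19, 16 passed 1.5-fold upwards from the localized to the invasive (15.1% of all genes) and 14 to the metastatic library (15.9%). Downwards 0 passed it to the invasive (11.9%) and 1 to the metastatic library (14.1%). The localized library held the lowest value of 17 (41.8%). The ATP synthase subunit genes Atp5j (98.9, 183 and 202 FPKM in the localized, invasive and metastatic libraries) and Atp5o (119, 268 and 285 FPKM) were among the higher ones. Wrb, which encodes a receptor for tail-anchored proteins at the endoplasmic reticulum, had 7.86, 18.2 and 20.6 FPKM. The virus receptor and junction gene Cxadr had 7.70, 41.4 and 41.5 FPKM, and the chloride channel family gene Clic6 0.0184, 20.8 and 28.7 FPKM. Clic6, Ripply3 and Igsf5 were under 1 FPKM in the localized library and were compared only through the libraries in which they were high. The other 16 genes had medians of 0.84 and 1.00, with 13 and 11 past 1.5-fold upwards, an alternative chosen after seeing the data. The junction gene Jam2 had the opposite order, with 5.64, 4.55 and 2.57 FPKM.

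**Figure D3:**
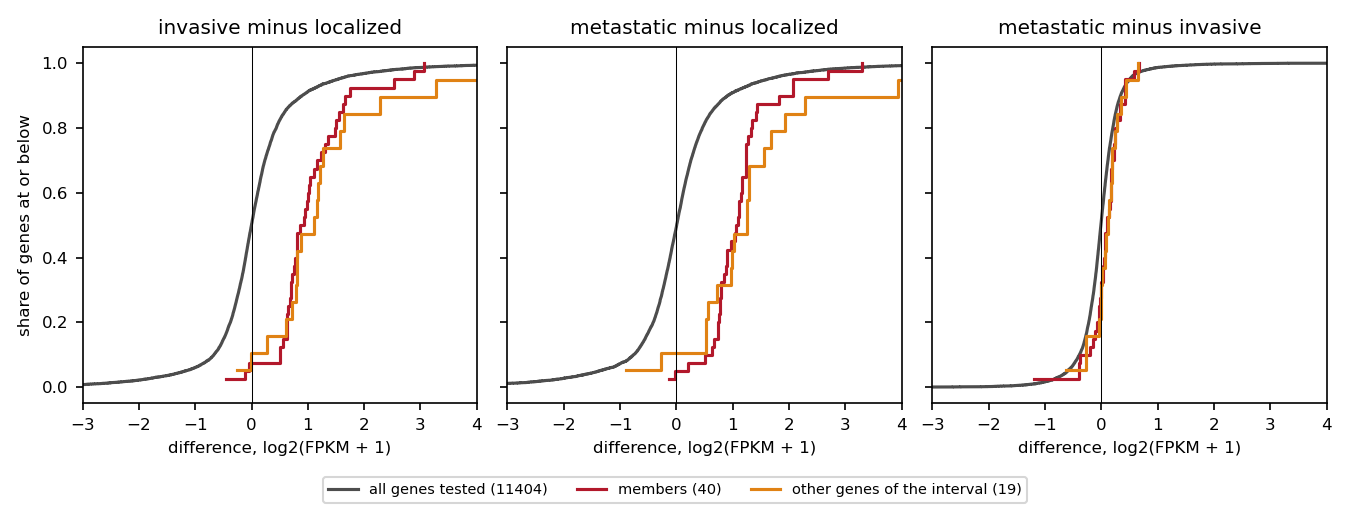
Cumulative share of genes (vertical axis) at or below a difference in log2(FPKM + 1) (horizontal axis) for all 11404 compared genes, the 40 compared members and the 19 other compared genes of the stretch. In the first 2 panels the curves of the members and of the other genes of the stretch run to the right of that of all genes, with medians of 0.90 and 1.12, and of 1.08 and 1.24; in the third they lie close to it.

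Some neighbouring protein-coding genes are transcribed away from each other from nearby start sites, and in these pairs both genes were higher outside the localized library. As 37 of the 40 compared members were lowest in that library, this is not particular to the pairs. By the gene ends of GENCODE, Gart and Son start 554 bases apart. Gart had differences of 0.71 and 0.90 and Son of 0.85 and 0.88 for invasive and metastatic against localized. Cryzl1 and Itsn1 start 306 bases apart and had 0.80 and 0.76 (Cryzl1) and 0.68 and 0.63 (Itsn1). Gabpa and the nearby gene Atp5j start within 700 bases, with 5′ ends that overlap, and had 0.55 and 0.78, and 0.88 and 1.03. Cct8, Synj1 and Donson start near a non-coding gene that stayed at or under 0.270 FPKM, too low to compare. These non-coding genes had differences of -0.03, 0.03 and 0.10 for invasive against localized. The promoter windows of Gart with Son and of Cryzl1 with Itsn1 are shown because in these pairs both genes are members and both were higher outside the localized library, and that of Mrps6 because it was within 1.5-fold. Each runs 5′ to 3′ on the strand of its gene, from 250 bases before to 50 bases after the start site (RefSeq, GRCm38), and capitals mark matches on either strand to the ETS core CCGGAAG, the palindrome bound by NRF1, the GC box GGGCGG, the CCAAT box, or the hypoxia response core ACGTG. The windows are chr16:91646923-91647222 (minus) for Gart, chr16:91647574-91647873 (plus) for Son, chr16:91728753-91729052 (minus) for Cryzl1, chr16:91729121-91729420 (plus) for Itsn1 and chr16:92058086-92058385 (plus) for Mrps6. Their RefSeq start sites differ from the GENCODE gene ends that gave the distances above.
Gart: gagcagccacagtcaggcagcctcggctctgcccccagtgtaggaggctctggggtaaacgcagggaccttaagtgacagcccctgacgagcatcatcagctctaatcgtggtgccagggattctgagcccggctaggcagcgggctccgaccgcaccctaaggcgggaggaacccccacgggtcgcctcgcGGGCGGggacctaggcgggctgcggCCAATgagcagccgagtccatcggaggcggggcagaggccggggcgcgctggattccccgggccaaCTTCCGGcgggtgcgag
Son: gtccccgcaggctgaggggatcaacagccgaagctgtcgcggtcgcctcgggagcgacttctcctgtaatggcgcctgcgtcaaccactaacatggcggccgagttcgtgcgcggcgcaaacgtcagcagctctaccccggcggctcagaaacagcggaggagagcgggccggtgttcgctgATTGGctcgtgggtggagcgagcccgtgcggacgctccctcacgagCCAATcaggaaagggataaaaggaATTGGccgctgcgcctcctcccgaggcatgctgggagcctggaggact
Cryzl1: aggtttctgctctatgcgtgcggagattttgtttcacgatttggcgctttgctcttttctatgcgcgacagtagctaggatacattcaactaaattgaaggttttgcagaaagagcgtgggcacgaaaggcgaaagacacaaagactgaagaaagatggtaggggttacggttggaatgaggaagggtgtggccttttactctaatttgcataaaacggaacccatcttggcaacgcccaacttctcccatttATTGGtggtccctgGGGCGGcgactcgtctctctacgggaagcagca
Itsn1: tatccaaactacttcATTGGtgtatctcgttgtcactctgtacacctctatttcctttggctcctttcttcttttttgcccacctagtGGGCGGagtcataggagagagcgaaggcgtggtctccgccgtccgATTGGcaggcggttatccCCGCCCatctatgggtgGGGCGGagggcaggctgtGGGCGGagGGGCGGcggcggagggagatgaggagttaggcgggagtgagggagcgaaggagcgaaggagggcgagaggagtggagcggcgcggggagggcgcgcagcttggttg
Mrps6: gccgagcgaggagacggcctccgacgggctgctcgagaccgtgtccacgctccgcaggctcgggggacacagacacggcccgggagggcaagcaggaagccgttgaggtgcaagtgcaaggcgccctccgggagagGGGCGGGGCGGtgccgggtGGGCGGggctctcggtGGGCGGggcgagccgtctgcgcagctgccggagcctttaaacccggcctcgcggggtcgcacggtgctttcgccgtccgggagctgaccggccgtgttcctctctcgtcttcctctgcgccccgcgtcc

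The Gart window holds 1 match each to the ETS core, the GC box and the CCAAT box, and the Son window 3 to the CCAAT box. The Cryzl1 window holds 1 each to the GC box and the CCAAT box. The Itsn1 window has 5 matches to GGGCGG and 2 to CCAAT, and the Mrps6 window 4 to GGGCGG, of which 2 overlap by 1 base. RefSeq windows were found for 43 members, 54 windows in all because some genes have several start sites. CCGGAAG was in 22.2% of these windows, beside 8.86% of all 32851 windows of the table, the NRF1 palindrome in 7.41% beside 0.971%, and GGGCGG in 61.1% beside 35.7%. CCAAT was in 44.4% beside 37.4% and ACGTG in 14.8% beside 19.6%. The members' windows held a median of 28.5 CG steps, against 7 over all windows, so base composition differs between them. These are matches of letters and not measured binding sites.

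The cytokine receptor genes form a cluster in the middle of the stretch (chr16:91372783-91565623). Ifnar1 and Ifnar2 encode both chains of the type I interferon receptor, Ifngr2 the signalling chain of the interferon-gamma receptor, and Il10rb a chain shared by the receptors of interleukin-10 and of type III interferons. Ifnar1 had 5.86, 19.1 and 16.5 FPKM in the localized, invasive and metastatic libraries. Ifnar2 had 14.4, 46.1 and 35.0 FPKM. Both were highest in the invasive library. Ifngr2 followed the same order with 44.4, 128 and 120 FPKM, while Il10rb was highest in the metastatic library (9.52, 32.2 and 36.4 FPKM). The FPKM ratio of invasive to localized was 3.26 for Ifnar1 (95% counting interval 2.99 to 3.56), 3.21 for Ifnar2, 2.88 for Ifngr2 and 3.38 for Il10rb. All 4 ratios were above the members' median of 1.96. Without these 4 genes the members' medians were 0.81 and 1.00.

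Other genes of interferon and interleukin-10 signalling lie on other chromosomes or far from the stretch, and 11 of 12 listed were compared. In the invasive against localized comparison 2 passed 1.5-fold upwards and 4 downwards, with a median of -0.24, and in the metastatic against localized comparison again 2 and 4, with a median of -0.30. The partner chain Ifngr1 had 31.6, 172 and 157 FPKM in the localized, invasive and metastatic libraries, a larger difference than that of Ifngr2. Several genes that act downstream of the receptors had the reverse order. The transcription factor genes Stat2 (20.6, 7.74 and 5.32 FPKM) and Irf9 (35.8, 22.9 and 11.3 FPKM), whose products carry the type I interferon signal to the nucleus, were highest in the localized library. The kinase genes Jak1 (39.1, 31.4 and 31.6 FPKM) and Tyk2 (10.5, 8.73 and 8.75 FPKM) were within 1.5-fold. Socs1, an inhibitor gene on the proximal part of chromosome 16, had 12.7, 6.09 and 5.68 FPKM.

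Among the members furthest apart were genes of amyloid precursor processing. App (chr16:84949685-85173766, minus strand) encodes the amyloid precursor protein, a membrane protein cut by secretases. It had 76.0, 257 and 323 FPKM in the 3 libraries, with ratios of 3.38 (3.31 to 3.46) and 4.25 (4.16 to 4.34) over the localized library. Bace2, at the other end of the stretch, encodes a protease that cuts the amyloid precursor within its amyloid sequence. It had 0.283, 8.42 and 11.6 FPKM, and the ratios of 29.8 (24.2 to 36.7) and 40.9 (33.3 to 50.3) rest on about 96.6 fragments in the localized library. Of the genes for the same process outside the stretch, 12 were compared and 2 passed 1.5-fold upwards in each comparison with the localized library. Aplp2, a relative of App, had 51.9, 111.5 and 108 FPKM. The differences from the localized library over these 12 genes ranged from -1.68 to 1.20 (invasive) and from -1.84 to 1.05 (metastatic), with medians of 0.24 and 0.20. The adaptor gene Apbb1 was at the low end, with 19.8, 5.52 and 4.84 FPKM, and Bace1 had 22.8, 32.2 and 26.2 FPKM.

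At the start of the stretch the differences were large and uneven. Nrip1, a corepressor of nuclear receptors, had 1.78, 22.3 and 17.0 FPKM in the localized, invasive and metastatic libraries, ratios of 12.6 and 9.54. Btg3, an antiproliferative gene of the BTG family, was below 1 estimated fragment in the localized library, against 4.78 FPKM (invasive) and 1.51 FPKM (metastatic). Set against a floor of 3 fragments per library, its level was at least 89.9-fold higher in the former and at least 28.4-fold higher in the latter. With the counting error of both libraries of a comparison included, the intervals began at 72.5-fold and 22.6-fold. The deubiquitinase gene Usp25 lies between Nrip1 and Btg3 and had 9.31, 22.2 and 23.1 FPKM, close to the typical ratio of the stretch. The 6 compared members up to App had medians of 1.46 and 1.28, the 22 from N6amt1 to Runx1 had 0.83 and 1.08, and the 12 from Cbr1 to Bace2 had 0.89 and 0.95.

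Sod1 and Hmgn1, both abundant, had ratios near the members' medians. Sod1 (chr16:90220754-90226329, plus strand), the copper and zinc superoxide dismutase of the cytosol, had 212, 419 and 499 FPKM in the localized, invasive and metastatic libraries, the highest level of any member. Its ratios were 1.98 (1.91 to 2.05) and 2.36 (2.27 to 2.44). Sod2, the mitochondrial enzyme encoded on chromosome 17, had 12.4, 12.2 and 15.5 FPKM, and the gene of the copper chaperone for Sod1, Ccs, had 41.2, 27.6 and 30.2 FPKM. The extracellular enzyme gene Sod3 was far lower outside the localized library, at 61.8, 0.598 and 0.283 FPKM. Hmgn1, which encodes a nucleosome-binding protein, had 141, 286 and 306 FPKM, with differences of 1.01 and 1.11 from the localized library. Its relatives differed in direction. Hmgn2 on chromosome 4 had 262, 185 and 161 FPKM, and Hmgn3 on chromosome 9 had differences of -2.65 and -2.49. Hmgn5 on chromosome X had differences of 1.28 and 1.38, larger than those of Hmgn1, so a rise was not particular to the member.

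For several complexes a single subunit gene lies in the stretch. Cct8 encodes 1 of the subunits of the CCT chaperonin, a ring that folds actin and tubulin. It had 81.2, 140 and 169 FPKM in the localized, invasive and metastatic libraries, differences of 0.78 and 1.05 from the localized library. The genes of the other 7 subunits, on 7 other chromosomes, had differences from -0.39 to 0.15 for invasive and from -0.11 to 0.24 for metastatic against localized. Tcp1, for example, had 154, 150 and 156 FPKM and Cct7 186, 186 and 194 FPKM. In the localized library Cct8 had the lowest level of the 8 subunit genes, 81.2 FPKM against 154 to 239.8. It was the lowest in the invasive library too, but close to the next, Cct6a (145 FPKM), and in the metastatic library Tcp1 was lower.

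The purine synthesis enzyme gene Gart had 18.1, 30.2 and 34.7 FPKM. The other 7 genes of de novo purine synthesis had differences from -0.70 to 0.15 and from -0.59 to 0.36. Upwards 0 of them passed 1.5-fold (15.1% and 15.9% of all genes), and downwards 1, Paics, in both comparisons (11.9% and 14.1%). Ltn1, the ubiquitin ligase that marks stalled nascent chains on ribosomes, had 5.05, 11.4 and 13.6 FPKM. Its partner gene Nemf had 18.1, 17.4 and 18.2 FPKM, and all 5 partners compared were within 1.5-fold. Psmg1, a chaperone of proteasome assembly, had 14.5, 29.0 and 31.8 FPKM, while Psmg2, whose product pairs with it, had 35.2, 24.7 and 28.4 FPKM. Chaf1b, a subunit of the histone chaperone CAF-1, had 14.9, 23.4 and 21.5 FPKM, and the large subunit gene Chaf1a had 39.2, 35.9 and 33.9 FPKM.

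Among the transcription factors, Gabpa, the DNA-binding chain of the ETS factor GABP, had 10.03, 15.2 and 17.9 FPKM, and Gabpb1, a gene of its partner chain, had 15.7, 12.1 and 10.2 FPKM. The other partner gene, Gabpb2, had 9.66, 10.2 and 10.5 FPKM. Ets2 was highest in the invasive library (17.3, 42.1 and 31.7 FPKM), and its relative Ets1 on chromosome 9 was lower there than in the localized library (14.3, 9.04 and 8.36 FPKM). Runx1 had 7.67, 13.6 and 13.5 FPKM. Its relatives Runx2 (11.9, 8.21 and 6.65 FPKM) and Runx3 (10.00, 2.57 and 2.06 FPKM) had the reverse order. Bach1, a heme-sensing repressor, had 3.77, 10.9 and 9.73 FPKM. The genes Hmox1 (84.9, 16.8 and 20.9 FPKM) and Nqo1 (182, 13.4 and 38.7 FPKM), both of the oxidative stress response and the first a known Bach1 target, were highest in the localized library.

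The kinase gene Dyrk1a had 6.54, 12.3 and 12.0 FPKM, but its relatives Dyrk2 (7.94, 18.2 and 20.9 FPKM) and Dyrk3 (9.89, 20.6 and 15.3 FPKM), on other chromosomes, had larger differences than Dyrk1a in the invasive library. Rcan1, an inhibitor of the phosphatase calcineurin, had 3.92, 5.95 and 9.98 FPKM and had the largest difference upwards from the invasive to the metastatic library among the 40 compared members, 0.66. The calcineurin catalytic subunit gene Ppp3ca had 52.3, 24.2 and 28.1 FPKM. Synj1, a phosphoinositide phosphatase of endocytosis, had 2.22, 5.97 and 6.09 FPKM, and its relative Synj2 had 18.1, 11.5 and 9.57 FPKM. Itsn2, the relative of the member Itsn1 on chromosome 12, was lowest in the localized library (7.48, 10.6 and 11.9 FPKM). Hlcs, the enzyme that attaches biotin to carboxylases, had 1.25, 5.32 and 8.49 FPKM, ratios of 4.26 and 6.80 to the localized library.

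Across the 15 lists of related genes, 92 genes outside the list of members were compared. Against the localized library 8 passed 1.5-fold upwards in each of the other libraries, and 18 and 21 downwards, with medians of -0.10 and -0.07. The shares of all genes upwards were 15.1% and 15.9%, and downwards 11.9% and 14.1%, and they also stand beside the counts of the receptor signalling and amyloid lists. In 11 of the 15 lists every compared member had a larger difference than every partner, in both comparisons with the localized library. Most of the lists hold a single compared member. The members were chosen by their higher values and the lists with results known, so this order was in part set beforehand. The 4 exceptions in both were the receptor signalling, DYRK kinase, HMGN and carbonyl reductase lists. In the metastatic against invasive comparison this held for 3 of the 15 lists.

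**Figure D4:**
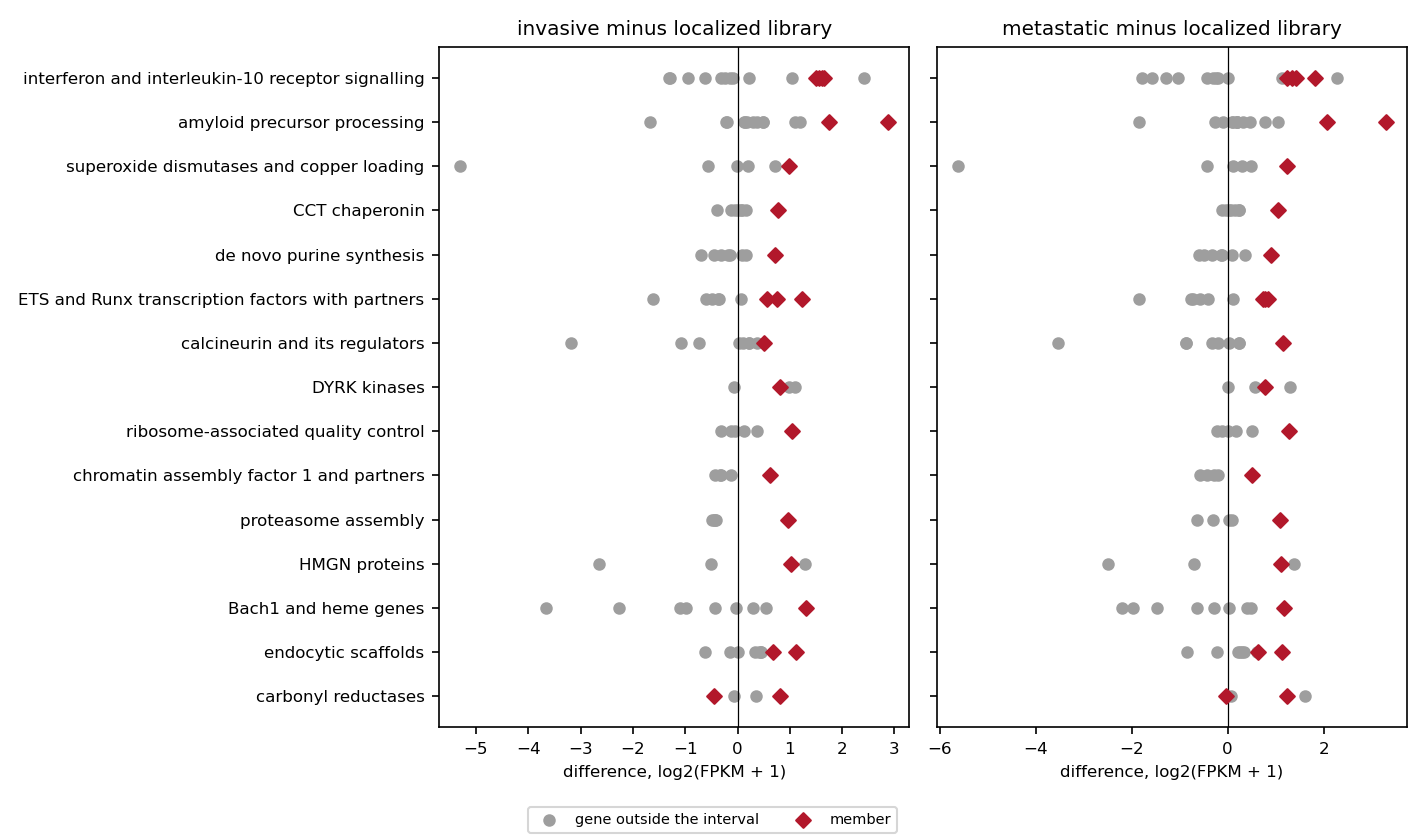
Difference in log2(FPKM + 1) from the localized library (horizontal axis) of compared members (red diamonds) and of related genes outside the stretch (grey circles) for 15 lists, in the invasive (left) and metastatic (right) library, with 1 library per group and no error bars. In 11 of the 15 lists all diamonds lie to the right of all circles; most lists hold a single diamond, and members were chosen by their higher values.

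The 3 members within 1.5-fold of the localized library in both comparisons were Mrps6, N6amt1 and Cbr3. Mrps6, a protein of the small mitochondrial ribosome subunit, had 127, 117 and 116 FPKM in the localized, invasive and metastatic libraries. The inositol transporter gene Slc5a3, annotated within Mrps6 on the same strand, had 15.4, 15.3 and 12.5 FPKM. Mrpl39, of the large mitochondrial ribosome subunit and at the start of the stretch, did differ (11.4, 19.4 and 22.1 FPKM). N6amt1, a methyltransferase gene, had 6.91, 6.68 and 8.09 FPKM, although its neighbour Ltn1 was more than 2-fold higher. The carbonyl reductase gene Cbr3 had 7.75, 5.38 and 7.57 FPKM, while Cbr1, its close relative and neighbour, had 11.9, 21.5 and 29.2 FPKM. The ratio of invasive to localized was 0.920 (0.877 to 0.964) for Mrps6, 0.966 (0.853 to 1.10) for N6amt1 and 0.694 for Cbr3, whose interval ends at 0.825. Atp5o is annotated across Donson and Cryzl1 on the same strand, so strand could not separate reads shared by these genes, or by Mrps6 and Slc5a3. Strand use in the counting is not stated, so reads where genes of opposite strands overlap cannot be told apart either. Such overlaps include those of Gabpa with Atp5j, Son with Donson, Atp5o with Itsn1, Btg3 with Cxadr, Cct8 with Usp16, Sod1 with Scaf4, and Ttc3 with Pigp.

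The remaining compared members had FPKM ratios to the localized library from 1.48 (Donson, invasive, 1.33 to 1.65) to 3.12 (Tmem50b, metastatic, 2.78 to 3.51). Son, a splicing cofactor, had 21.6, 39.8 and 40.5 FPKM in the localized, invasive and metastatic libraries. Donson, a replication fork factor, had 6.08, 8.99 and 10.2 FPKM, and Urb1, of ribosome biogenesis, had 1.35, 2.62 and 3.58 FPKM. Usp16, a deubiquitinase of histone H2A, had 6.64, 13.7 and 15.5 FPKM. The chromatin genes Morc3 (8.18, 17.5 and 18.2 FPKM) and Brwd1 (5.73, 9.52 and 10.2 FPKM) were lowest in the localized library too. Itsn1, an endocytic scaffold, had 6.52, 11.03 and 10.7 FPKM, and the ubiquitin ligase gene Ttc3 had 10.00, 16.9 and 17.8 FPKM. Tmem50b had 4.002, 11.9 and 12.5 FPKM, Rwdd2b 1.91, 3.50 and 4.02 FPKM, and Cryzl1 11.7, 21.1 and 20.5 FPKM. In all 11 of these genes the localized value was below both others.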

How the data were processed

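RNA-seq of 3 mouse pancreatic tumour cell lines, 1 library each, was analysed from 1 table of FPKM per gene deposited by the authors. Cufflinks 2.2.1, STAR 2.5.2a and FastQC 0.11.2 stand in the submitters' processing notes beside the build GRCm38, without roles. Read layout, strand use and annotation are not stated there. Libraries were TruSeq preparations of 1 ug of total RNA. Samples were grouped by the stage label. The lowest deposited value was 0.1 in each column, so 0.1 was subtracted. Of 22784 entries, 27 with a date number for a symbol and 22 short RNA genes were left out. Differences were computed in log2(FPKM + 1), with a pseudocount of 1, over 11404 genes with a mean of at least 1 FPKM. Positions came from GENCODE M21, and from RefSeq for symbols it lacks; 42 compared genes had none. With 1 library per group no test was possible and no p-value was computed.

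Members, related lists and cell type markers were chosen with earlier results of these data known, as was the rule for named genes. That rule gives in full the members at least 1.5-fold apart between any libraries, those sharing a start region, the cytokine receptor genes, App and Sod1, and names genes of the stretch, its edges and the related lists. Partners within 2-fold, marker genes and genes further out are named to describe a list or an edge and were chosen after their values were seen. Depth was estimated from the lowest step of values in genes with 1 transcript, after shortening transcripts by 180 bases, and fragments of a gene from the shortest principal transcript. Ratio intervals are 95% exact binomial intervals on these estimates (scipy 1.17.1, pandas 2.3.3, Python 3.11.15). The computation was tested on simulated data. Alternatives covered the pseudocount, the filter, the floor, library scaling and the choice of genes. Part of the genotype label and some genes of the lists are not reported here.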

Additional observations from a re-analysis of the deposited data

How the results depend on the processing

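No paired analysis was possible because each stage has 1 library, and none could be left out. Over 11 alternatives, 1 of them (members at 1 FPKM or more in the localized library) added after the data were seen, the median difference of the members ranged from 0.80 to 0.95 (invasive against localized), from 0.96 to 1.14 (metastatic against localized) and from 0.07 to 0.12 (metastatic against invasive). The median of all genes stayed between -0.01 and 0.02. No value changed sign past 1.5-fold. Of 198 counts and medians under an alternative, 178 stayed close to the value reported and 20 moved. Among the 20, 10 came from the middle stretch alone and 4 from every gene of the stretch, which are sets of another size.

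With the 22 compared members of the middle stretch alone, 18, 8 and 20 were 1.5-fold higher, 2-fold higher and above the median of all genes in the invasive against localized comparison. In the metastatic against localized one they were 20, 12 and 21. Between metastatic and invasive 1 was 1.5-fold higher, 14 lay above the median, and 0 were 1.5-fold or 2-fold lower. The sets differ in size, so their counts differ with it. Past 1.5-fold upwards from the localized library were 81.8% (invasive) and 90.9% (metastatic) of the middle stretch. All compared members had 85% and 90%, and all genes 15.1% and 15.9%. Past 2-fold the shares were 36.4% and 54.5%, 42.5% and 55%, and 8.78% and 9.08%. Shares of all genes for the other limits are given above. With all 59 compared genes of the stretch, 27 were 2-fold higher (invasive against localized), 1 was 1.5-fold lower (metastatic against localized), and between metastatic and invasive 2 were 1.5-fold lower and 42 lay above the median. For metastatic against invasive, 2 members were 1.5-fold lower without a filter. With a mean of at least 5 FPKM, and with members at 1 FPKM or more in the localized library, 0 were 1.5-fold or 2-fold lower. Without subtracting 0.1, 1 member was 1.5-fold higher, and the cause was not tested. Of 600 values of single members, 33 moved by more than their counting interval, 31 of them with another pseudocount.

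A single library per stage limits every value, since variation between cultures could not be measured. Members near 0 in the localized library, such as Btg3 and Bace2, have ratios that rest on few fragments there.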
